A study of Homo sapiens with 17 samples.

Results

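Lysosomal genes were followed in HEK-293T cells, a line of human embryonic kidney cells, after a short exposure to emetine, an alkaloid that blocks translocation of the ribosome. The 37 genes were taken from a fixed list of lysosomal proteins and sorting receptors and matched by symbol, and all 37 were found among the 19222 genes of the 1 h experiment and 36 among the 9982 genes of the 2 h experiment. The list holds 3 sorting receptors, 7 lysosomal membrane proteins, 24 soluble hydrolases (7 proteases, 9 glycosidases, 5 sulfatases and 3 lipid hydrolases) and 3 soluble proteins that are not hydrolases. In the 1 h experiment, cells received 500 µM 4-thiouridine (s4U) alone or with 1.8 µM emetine, with 3 libraries of each kind, and 1 untreated and 1 emetine-treated library came from cells that received no s4U. In the 2 h experiment, cells were untreated or received 1.8 µM or 240 µM emetine, with 3 libraries of each kind, and the labels record 250 µM s4U. s4U enters RNA made during the incubation and is read as T-to-C conversions after chemical recoding. From these, the shares of reads from new (labeled) and older (unlabeled) RNA were estimated for each gene and library. Labeled and unlabeled reads or RNA below are the level multiplied by these estimated shares, and single reads were not assigned. The labels do not say whether replicates came from separate cultures, so the p-values measure the spread between these libraries. In bulk RNA, a change in all cells and a change in some cells cannot be told apart.

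The lysosome is the acidic compartment in which proteins, glycans, sulfated polysaccharides and lipids are broken down. Most of its soluble hydrolases are made in the endoplasmic reticulum, receive a mannose 6-phosphate tag in the Golgi apparatus and are carried to endosomes by the mannose 6-phosphate receptors encoded by *IGF2R* and *M6PR*, and sortilin, encoded by *SORT1*, carries others. Loss of single hydrolases or membrane proteins causes lysosomal storage disorders, and many of these genes carry in their promoters an E-box-like element bound by TFEB and its relatives, which drive lysosomal gene expression when nutrients are scarce.

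That element is shown first for the members that the results describe in full. RefSeq promoters (GRCh38.p14, 250 bases before to 50 bases after each gene start) were available for 28 of the 37 members. The letters TCACGTGA, which read the same on both strands, occurred in 7 of these 28 promoters (25.0%) and in 1.18% of 27305 genes. The 7 were *IGF2R*, *LAMP1*, *GAA*, *CTSA*, *MCOLN1*, *GALNS* and *CLN3*. The shorter letters CACGTG, which TCACGTGA contains, occurred in 12 of the 28 (42.9%) and in 8.77% of all genes. The windows of 30 bases below are written 5′ to 3′ on the strand of the gene, with TCACGTGA in capitals.
*IGF2R*, chr6:159968938-159968967, plus strand: gcgcgctgcgcTCACGTGAcccgggcctgg
*CTSA*, chr20:45891298-45891327, plus strand: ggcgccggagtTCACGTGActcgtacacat
*MCOLN1*, chr19:7522571-7522600, plus strand: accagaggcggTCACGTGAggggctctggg
*CLN3*, chr16:28492058-28492087, minus strand: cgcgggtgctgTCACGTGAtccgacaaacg
The letters began 133, 26, 42 and 2 bases before the gene start in these 4 promoters, in the order shown. The 7 members with the element had a median log2 fold change in level of −0.16 with emetine (−0.32 to −0.03), and the 21 without it had a median of −0.19 (−0.41 to 0.08).

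The 1 h libraries held 22246279 to 40018063 reads given to genes. Markers of this cell line were present in every labeled library (6 of 6 at 1 CPM or more, where CPM is the count scaled to library size), with a summed level of 858 to 987 CPM in untreated and 815 to 907 CPM in emetine libraries. Blood cell markers summed to at most 1.17 CPM in each library and *PTPRC* had 0 reads, and hepatocyte and erythroid markers summed to at most 0.625 and 2.70 CPM. Fibroblast markers, of which 2 of 3 were at 1 CPM or more in each library, summed to 23.4 to 28.6 CPM in untreated and 21.5 to 31.2 CPM in emetine libraries. Emetine replicate 3 differed in its profile from emetine replicates 1 and 2, and counts of calls in level are therefore also given without it, as are the values of single genes where leaving it out changes the call or moves the fold change by over 1.5 times. Among the 37 members, the log2 difference between emetine replicate 3 and the mean of emetine replicates 1 and 2 ran from −0.60 to 0.63, against −0.26 to 0.38 for the same difference among untreated libraries. Over the 37 members, which share these libraries, its Spearman correlation with transcript length was 0.633, against −0.196 for the untreated libraries. The receptor *IGF2R*, with the longest transcript of the list (14061 bases), had 2802, 2986 and 3192 reads in emetine replicates 1 to 3, although replicate 3 was the shallowest of these. *CD63*, with a transcript of 1023 bases, had 7835, 9214 and 3989 reads.

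**Figure D1:**
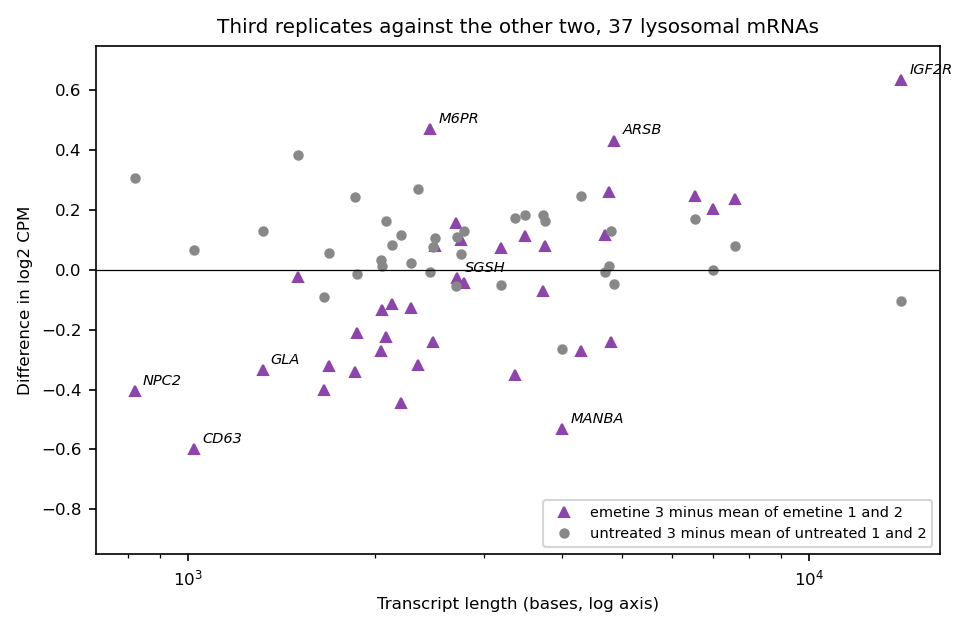
Difference in log2 CPM between the third replicate and the mean of the first and second replicates (vertical axis) against transcript length in bases (horizontal log axis) for the 37 members, with emetine libraries as triangles and untreated libraries as circles. In emetine libraries the points climb from −0.60 for the short *CD63* to 0.63 for the long *IGF2R*, and the untreated points show no such slope.

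In untreated cells, the most abundant members per length of transcript were *GLA* (α-galactosidase A) at 277 ± 14.8 CPM per kb (SD, n = 3 libraries), the tetraspanin *CD63* at 262 ± 7.12, the aspartic protease *CTSD* (cathepsin D) at 183 ± 9.71, the saposin precursor *PSAP* at 149 ± 4.74 and *GRN* (progranulin) at 133 ± 9.2 CPM per kb. The ranges of *GLA* and *CD63* overlapped, whereas *CTSD* and *PSAP* were each separated from their neighbors in this order. The least abundant were the protease *CTSZ* at 1.13 ± 0.253, *MANBA* (β-mannosidase) at 2.56 ± 0.321 and the sulfatase *ARSB* at 3.62 ± 0.122 CPM per kb. The range of each of these 3 was apart from those of its neighbors. *CTSZ* had 51, 44 and 42 reads in the untreated and 60, 66 and 44 reads in the emetine libraries, too few to estimate its new RNA. In the 2 h experiment, the authors' mean of normalized counts over all libraries gave *GLA* the highest value per kb as well, and over 36 members its Spearman correlation with the 1 h untreated level per kb was 0.567. The authors prepared the 1 h libraries with an mRNA kit and the 2 h libraries with a total RNA kit, so this correlation compares unlike libraries. Because the experiments were also normalized separately and the 2 h mean pools both doses, that mean gives an order of levels and no response to emetine. The low and the high dose of emetine were not compared here.

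The members turned over slowly compared with other mRNAs. The fraction new, the estimated share of a gene's reads that come from RNA made during the hour, had a median of 5.64% over 36 members in untreated cells and of 12.2% over all 10763 genes with enough reads, and 6 of the 36 members lay above that median of all genes. The median over members was 4.74%, 5.92% and 6.51% in untreated replicates 1, 2 and 3, and the median over all genes was 9.26%, 12.3% and 14.7%, so replicate 1 was the lowest for both. The mRNAs with the lowest fraction new were *LIPA* (lysosomal acid lipase) at 2.00%, 2.89% and 2.46%, the α-mannosidase *MAN2B1* at 2.37%, 2.73% and 3.39%, and *GRN* at 2.30%, 2.84% and 3.49%. Under the assumption of a steady state, their half-lives were 28.6 ± 5.39, 24.7 ± 4.42 and 24.4 ± 5.14 h (SD, n = 3 libraries), and the spreads of these 3 overlap.

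4 soluble hydrolases stood at the other end. *MANBA* had 30.0%, 30.6% and 33.8% new reads in the untreated libraries, for a half-life of 1.84 ± 0.143 h (SD, n = 3). *GUSB* (β-glucuronidase) had 21.2%, 21.8% and 24.7%, *SGSH* (the sulfamidase of heparan sulfate breakdown) 17.2%, 19.8% and 25.5%, and *NAGLU*, which acts in the same breakdown, 16.5%, 20.9% and 22.2%. *MANBA* was above the others in every library, and the ranges of *GUSB*, *SGSH* and *NAGLU* overlapped. Among all genes, *MANBA* stood at percentile 86.4 of untreated fraction new, and *LIPA* at percentile 2.66. Next came *MCOLN1* (the lysosomal calcium channel TRPML1) at 13.5% ± 3.07, and the receptors *M6PR* at 13.2% ± 3.91 and *IGF2R* at 12.1% ± 2.05, whereas 27 of the 36 members were under 8%, and 15 under 5%. By class, the median was 12.1% for the sorting receptors, 7.06% for glycosidases, 6.004% for sulfatases, 5.08% for proteases, 5.02% for lysosomal membrane proteins, 4.40% for lipid hydrolases and 3.49% for the 3 soluble proteins that are not hydrolases.

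**Figure D2:**
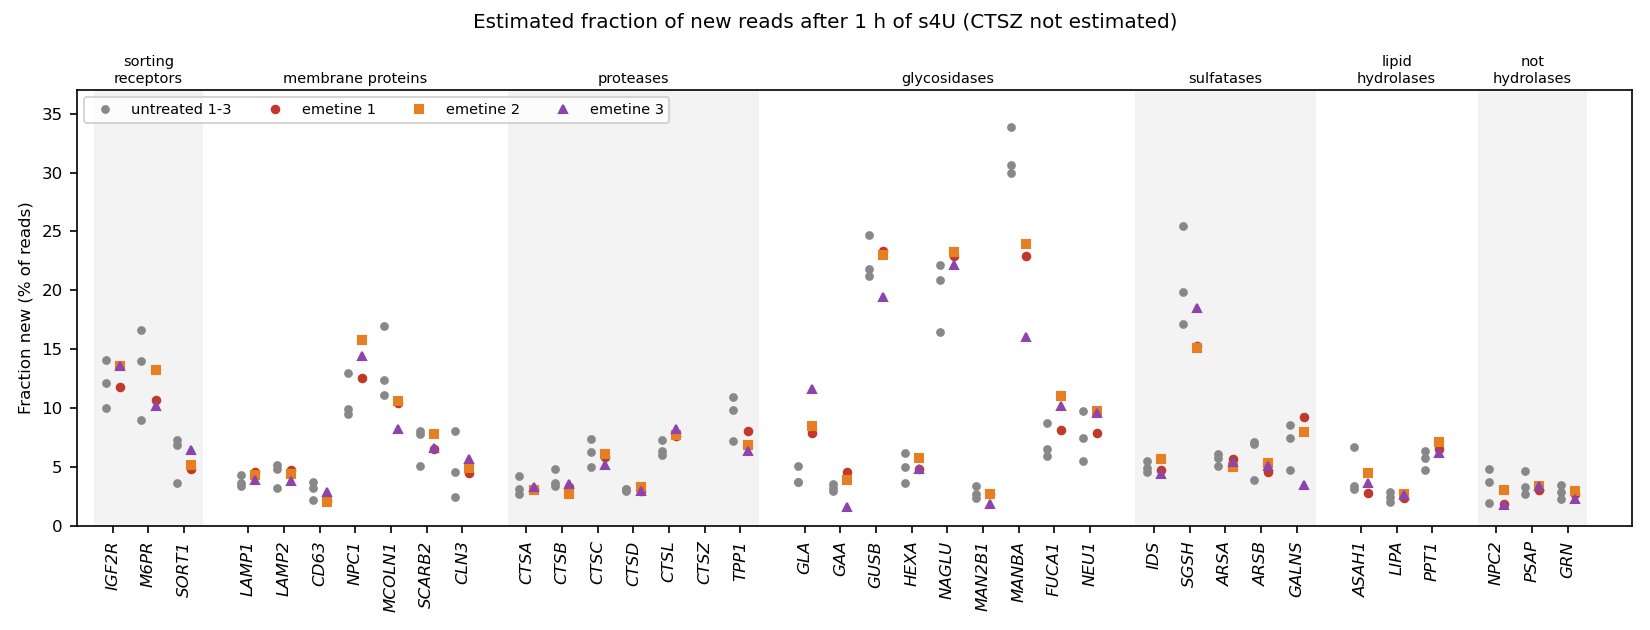
Fraction new in percent of reads (vertical axis) for 36 members ordered by class (horizontal axis), with grey circles for the 3 untreated and colored symbols for the 3 emetine libraries. *MANBA*, *GUSB*, *SGSH* and *NAGLU* are the highest on average in untreated cells. Single values still overlap those of other members, such as *NAGLU* at 16.5% in untreated replicate 1 and *MCOLN1* at 17.0% in untreated replicate 3. *GLA* is the member whose emetine values, from 7.89% to 11.6%, sit clear of its untreated values and passed the test.

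*GLA* was the 1 member whose share of new RNA changed with emetine at an adjusted p-value under 0.05. Its enzyme removes terminal α-galactose from glycolipids, and its loss causes Fabry disease. *GLA* (chromosome X, 101393273 to 101408012, minus strand, GENCODE 44 on GRCh38) had 3.69%, 3.69% and 5.11% new reads in untreated and 7.89%, 8.49% and 11.6% in emetine libraries. All emetine values were above all untreated values, and the mean rose from 4.16% ± 0.821 to 9.34% ± 2.02 (SD, n = 3). The share of all genes whose groups separate in this way was not counted for fraction new, labeled or unlabeled reads. The change in the logit of the fraction new was 0.86 (standard error 0.22, limma adjusted p = 0.00957 over 10763 genes). Among all genes tested, 0.214% rose and 4.83% fell by the same rule, and the median change was −0.16 for all genes and −0.05 for the 36 members. The call was lost when untreated replicate 2 (adjusted p = 0.117) or emetine replicate 1, 2 or 3 (0.0527, 0.0677 and 0.175) was left out, with changes of 0.73 to 0.95 in these 4 fits.

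The conversions themselves carried this difference. Reads of *GLA* with at least 2 conversions made up 3.12%, 3.26% and 4.01% of its reads in untreated and 6.23%, 7.23% and 9.54% in emetine libraries, out of 7167 to 13670 reads per library. Without s4U, such reads were 0.0248% (untreated, 2 reads) and 0.0255% (emetine, 3 reads). Reads with 4 or more conversions numbered 193, 230 and 134 in untreated libraries and 366, 594 and 364 in emetine libraries, and 0 of 8050 and 0 of 11761 without s4U.

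Expressed as levels, labeled *GLA* RNA was 13.1, 12.96 and 19.8 CPM in untreated and 26.6, 28.97 and 31.3 CPM in emetine libraries, and unlabeled *GLA* RNA was 343, 339 and 367 against 310, 312 and 238 CPM. The labeled values did not overlap and rose by 0.92 on the log2(CPM + 0.5) scale (standard error 0.23, limma adjusted p = 0.0128), beside 0.26% of all genes that rose and 0.632% that fell. The labeled call had adjusted p-values of 0.588, 0.214, 0.141 and 0.249 without untreated replicate 2 and emetine replicates 1, 2 and 3. Unlabeled *GLA* had a change of −0.30 (adjusted p = 0.176), and the total level one of −0.21 (edgeR adjusted p = 0.297), neither of which passed the test. Without emetine replicate 3 the change in total level was −0.10 (adjusted p = 0.271). Labeled RNA was a small part of the total, and the level of *GLA* was 356, 352 and 387 CPM without and 337, 341 and 269 CPM with emetine.

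**Figure D3:**
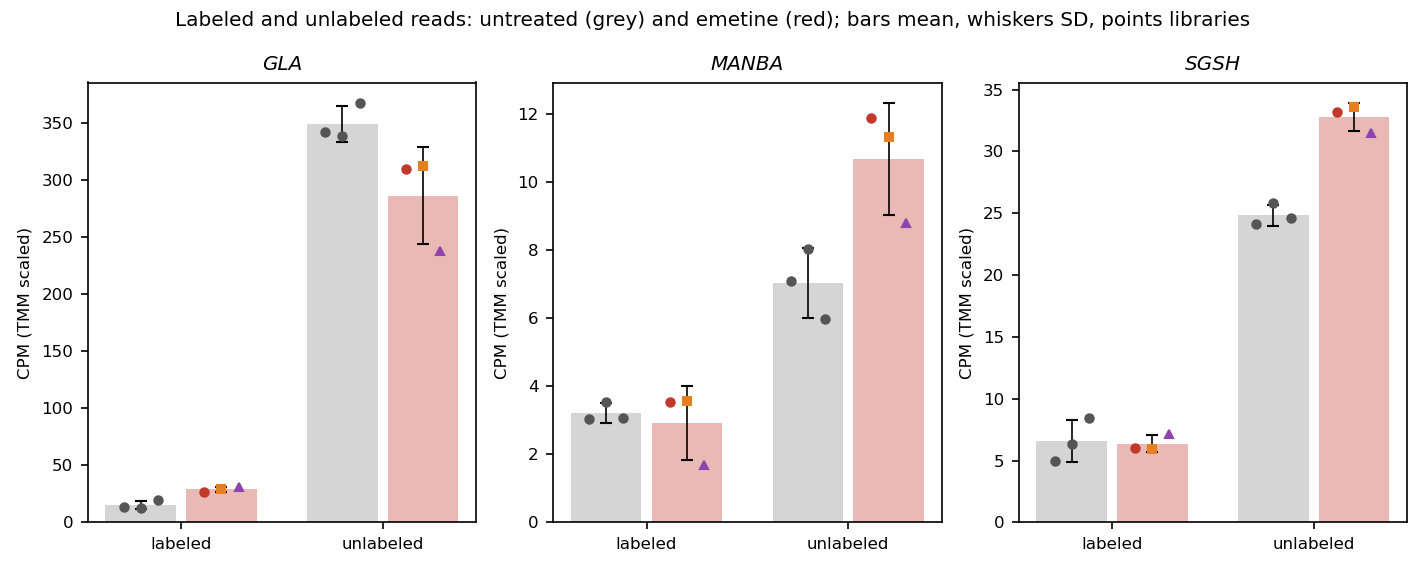
Labeled and unlabeled CPM (vertical axes) of *GLA*, *MANBA* and *SGSH* in untreated (grey) and emetine-treated (red) cells, with bars for means, whiskers for SD (n = 3) and points for libraries. Labeled *GLA* moves from 15.3 to 28.96 CPM on average while its unlabeled reads stay far larger, whereas for *MANBA* and *SGSH* the unlabeled bars are the ones that are higher with emetine.

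*GLA* starts 297 bases from *HNRNPH2* (an RNA-binding protein gene), and the genes point away from each other. Whether a shared promoter drives both was not tested. The stretch between the gene starts that the RefSeq promoter windows of both genes hold, outside every GENCODE exon, is printed because *GLA* is the member whose labeled RNA rose. It is chrX:101408013-101408175 (GRCh38.p14), written 5′ to 3′ on the minus strand, the strand of *GLA*, with the letters of the CCAAT box (CCAAT, searched on both strands, here 2 matches on the opposite strand) in capitals.
*GLA* and *HNRNPH2*: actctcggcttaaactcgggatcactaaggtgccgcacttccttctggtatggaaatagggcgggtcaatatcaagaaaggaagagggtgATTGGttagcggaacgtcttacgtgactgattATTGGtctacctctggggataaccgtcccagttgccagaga
CCAAT occurred in 39.7% of the promoters of all genes and in 39.3% of those of the 28 members with an entry. Most reads of *HNRNPH2* are listed as shared with the readthrough gene *RPL36A-HNRNPH2*. Of these reads, 7.86%, 10.3% and 11.3% had at least 2 conversions in untreated and 8.86%, 9.83% and 8.99% in emetine libraries, so the groups overlapped. *GLA* shares 557 exonic bases with *RPL36A* on the opposite strand, no *GLA* read was listed as ambiguous, and reads given to *RPL36A* numbered 197 to 603 per labeled library, with 26.9% to 65.9% of them holding at least 2 conversions. The part of that overlap in the *GLA* values was not tested.

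No other member passed the test of fraction new. The most negative change was that of *MANBA*, from 30.0%, 30.6% and 33.8% to 22.9%, 23.95% and 16.03%, with groups that did not overlap. Its change in logit was −0.56 (standard error 0.21, limma adjusted p = 0.115). Of the alternatives run it passed only without untreated replicate 1 (−0.60, adjusted p = 0.0393), beside 23.5% of all genes that then fell. *MCOLN1* had 11.1%, 12.4% and 17.0% in untreated and 10.4%, 10.6% and 8.26% in emetine libraries (change −0.35, adjusted p = 0.433), which did not overlap, and the change ran from −0.45 to −0.21 with 1 library left out. The cholesterol carrier *NPC2* had 1.96%, 3.70% and 4.81% against 1.87%, 3.07% and 1.78% (change −0.42, adjusted p = 0.490), and its groups overlapped. With 1 library left out its change ran from −0.69 (without untreated replicate 1) to −0.22 (without untreated replicate 3). *TPP1* (tripeptidyl peptidase 1) had 7.18%, 9.81% and 10.9% against 8.04%, 6.90% and 6.35% (change −0.28, adjusted p = 0.591), and the change ran from −0.42 to −0.19 with 1 library left out. The fucosidase *FUCA1*, named after its values were seen, had 5.919%, 6.525% and 8.737% against 8.171%, 11.03% and 10.17%, with overlapping groups, and it passed when the libraries were centered on their medians, beside 1.17% of all genes that then rose. Over all members, the change ran from −0.56 to 0.86, with 13 above and 23 below 0.

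For transcript levels, 0 of the 37 members passed edgeR's quasi-likelihood test on TMM-scaled counts in either direction, against 2.64% of 13776 genes that rose and 0.0436% that fell. In counts simulated from these libraries, the same test recovered 22% of genes with a true log2 change of 0.5 in size. It recovered 78.8% of those with a change of 1. Every member's measured change was smaller than 0.5, so 0 calls do not show that member levels were unchanged. At an unadjusted p-value under 0.05, 2 members were higher and 10 lower, beside 14.9% and 6.95% of all genes. DESeq2's Wald test called 4 members lower, *CTSD*, *PPT1* (palmitoyl-protein thioesterase), *GRN* and *PSAP* (adjusted p = 0.0226, 0.0270, 0.0264 and 0.0270), and 0 higher, against 5.95% of all genes called higher and 1.13% called lower. Below 0 were 32 of the 37 log2 fold changes, which ran from −0.41 to 0.41. Their median was −0.16, and that of all genes was 0.03. With TMM scaling these changes are relative to the other genes, and they do not give a change in amount per cell. With library sizes from spike-in reads, the median was 0.52 for members and 0.71 for all genes. Lower and higher levels in the text are meant in this relative sense. In 15 members every emetine library was below every untreated library, and in 1, *SGSH*, every emetine library was above. Among all genes these shares were 15.2% and 19.5%.

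**Figure D4:**
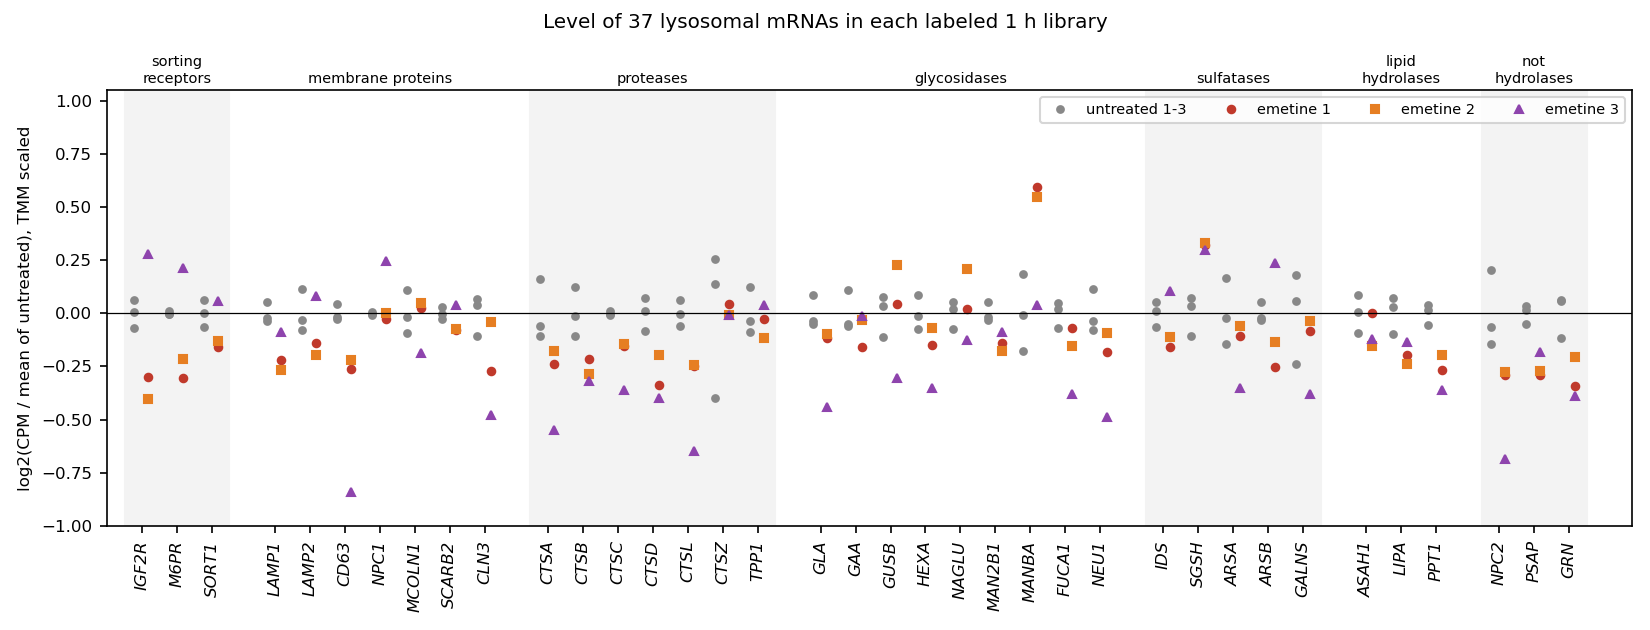
Level of each of the 37 members in every labeled library, as log2 of CPM over the mean of the untreated libraries (vertical axis), by class (horizontal axis), with grey circles for untreated libraries and colored symbols for emetine replicates 1, 2 and 3. Most emetine points lie a little below 0, *MANBA* and *SGSH* lie above it, and emetine replicate 3 (triangles) is apart from the other emetine libraries for *IGF2R*, *CD63* and *NPC2*.

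Without emetine replicate 3, 14 members passed the same test, 12 lower and 2 higher, against 3.83% and 9.91% of all genes. The 12 were the receptors *IGF2R* and *M6PR*, the membrane proteins *LAMP1* and *CD63*, the proteases *CTSB*, *CTSD* and *CTSL*, the lipid hydrolases *LIPA* and *PPT1*, and *NPC2*, *GRN* and *PSAP*. *LAMP1*, an abundant glycoprotein of the lysosomal membrane, and *CTSB*, a cysteine protease, are named here after their values were seen. *LAMP1* had 84.5, 80.2 and 79.4 CPM in untreated and 69.8, 67.7 and 76.6 CPM in emetine libraries, and its log2 fold change was −0.19 with all libraries and −0.24 without emetine replicate 3 (adjusted p = 0.0190). *CTSB* had 83.0, 88.6 and 97.4 CPM against 77.1, 73.5 and 71.8 CPM, with log2 fold changes of −0.27 and −0.25 (adjusted p = 0.0315 without emetine replicate 3). The groups overlapped in neither gene. All 12 also had a negative fold change with all 6 libraries, but these include the libraries that gave the calls, so that sign is no separate check. In the libraries without s4U all 12 had a negative ratio, as had 27 of the 37 members and 6240 of 12392 genes. The log2 fold changes of the 12 without emetine replicate 3 were small, from −0.35 for *IGF2R* to −0.21 for *LIPA*.

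Both mannose 6-phosphate receptors were lower in emetine replicates 1 and 2 and higher in replicate 3. *IGF2R* had 99.0, 103 and 94.0 CPM in untreated and 80.0, 74.5 and 120 CPM in emetine libraries. With all libraries its log2 fold change of −0.11 had a standard error of 0.17 (edgeR adjusted p = 0.697). It was −0.35 (0.06, adjusted p = 0.00271) without emetine replicate 3, and 0.01 without emetine replicate 2. *M6PR* had 48.0, 48.5 and 48.0 CPM against 39.1, 41.5 and 55.8 CPM, and its log2 fold change was −0.09 with all libraries, −0.25 (adjusted p = 0.0221) without emetine replicate 3 and 0.01 without emetine replicate 1. The direction for both receptors therefore rested on which emetine libraries were used. *M6PR* shares 1107 exonic bases with *PHC1* on the opposite strand.

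Among lysosomal membrane proteins, *CD63* had 264, 263 and 276 CPM in untreated and 224, 230 and 150 CPM in emetine libraries. The groups did not overlap, and the log2 fold change of −0.41 had a standard error of 0.15 (edgeR adjusted p = 0.189), and it was −0.24 (adjusted p = 0.0129) without emetine replicate 3. *CLN3*, whose loss causes a juvenile neuronal storage disorder, had 63.7, 71.9 and 70.4 CPM against 56.8, 66.7 and 49.2 CPM (−0.25, adjusted p = 0.248, and −0.15, adjusted p = 0.2203, without emetine replicate 3), and its groups overlapped. It shares 573 exonic bases with *APOBR* on the opposite strand. *MCOLN1* had 33.0, 31.4 and 36.1 CPM against 34.0, 34.6 and 29.3 CPM, and these overlapped with and without emetine replicate 3.

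All 7 proteases had log2 fold changes below 0, with a median of −0.27, and in 5 of them the emetine libraries lay below the untreated ones. Among all 13776 genes, 15.2% had every emetine library below every untreated library. *CTSL* (the cysteine protease cathepsin L) had 89.1, 85.1 and 81.7 CPM in untreated and 71.8, 72.1 and 54.5 CPM in emetine libraries, a log2 fold change of −0.37 (standard error 0.12, edgeR adjusted p = 0.152). Without emetine replicate 3 it was −0.24 (adjusted p = 0.0196). *CTSA*, which also protects the sialidase and β-galactosidase, had 142, 147 and 171 CPM against 130, 135 and 105 CPM (−0.32, adjusted p = 0.198, and −0.21, adjusted p = 0.0726, without emetine replicate 3). *CTSD* had 355, 394 and 377 CPM against 297, 328 and 284 CPM (−0.31, adjusted p = 0.138, and 0.0172 without emetine replicate 3). The groups did not overlap for any of these 3. *CTSZ* was at 1.83, 1.26 and 1.98 CPM against 1.71, 1.65 and 1.65 CPM, which overlapped. On the opposite strand, *CTSZ* shares 6136 exonic bases with *NELFCD*, and *CTSA* shares 959 with *NEURL2* and 329 with *PLTP*.

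Among the glycosidases and sulfatases, *MANBA* and *SGSH* were the 2 members that passed the test as higher when emetine replicate 3 was left out. *MANBA* (chromosome 4, 102630770 to 102760994, minus strand), which cleaves the last β-mannose of glycans, had 10.1, 11.6 and 9.02 CPM in untreated and 15.4, 14.9 and 10.5 CPM in emetine libraries. The value of emetine replicate 3 lay within the untreated range. The log2 fold change of 0.41 with all libraries had a standard error of 0.17 (edgeR adjusted p = 0.221), and it was 0.56 (0.12, adjusted p = 0.00673) without emetine replicate 3, from only 191 to 596 reads per library. *SGSH* (chromosome 17, 80206716 to 80220923, minus strand) had 29.1, 32.2 and 33.0 CPM against 39.2, 39.5 and 38.6 CPM. Here all emetine libraries, replicate 3 included, were above the untreated ones, and the log2 fold change of 0.32 had a standard error of 0.09 (adjusted p = 0.118), and it was 0.33 (0.07, adjusted p = 0.0106) without emetine replicate 3. *SGSH* shares 230 exonic bases with *CARD14* on the opposite strand.

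In both genes the unlabeled reads separated the groups. Unlabeled *MANBA* was 7.08, 8.03 and 5.96 CPM in untreated and 11.9, 11.3 and 8.79 CPM in emetine libraries, and labeled *MANBA* was 3.03, 3.54 and 3.05 against 3.52, 3.56 and 1.68 CPM. Unlabeled *SGSH* was 24.1, 25.8 and 24.6 CPM against 33.2, 33.6 and 31.5 CPM, and labeled *SGSH* was 5.01, 6.38 and 8.42 against 6.004, 5.96 and 7.15 CPM. The unlabeled groups were separate and the labeled groups overlapped in both genes. The log2 change of unlabeled reads was 0.57 for *MANBA* (limma adjusted p = 0.0824) and 0.39 for *SGSH* (adjusted p = 0.0501), and neither passed the test, in which 7.3% of all genes rose and 0.0929% fell. With the fraction new of *SGSH* at 15.3%, 15.1% and 18.5% in emetine libraries, its change in logit was −0.29 (adjusted p = 0.552), and −0.41 to −0.16 with 1 library left out. *GUSB* and *NAGLU*, the other 2 hydrolases with a high fraction new, had 68.9, 76.2 and 78.6 against 76.8, 87.2 and 60.2 CPM and 74.1, 79.0 and 80.7 against 79.0, 89.95 and 71.3 CPM, with overlapping groups. Their log2 fold changes in level were 0.005 and 0.041 with all 6 libraries. Without emetine replicate 3 they were 0.14 and 0.12 (edgeR adjusted p = 0.207 and 0.256), and without s4U the log2 ratios were 0.30 and 0.16.

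The sialidase *NEU1* had 95.3, 98.0 and 109 CPM in untreated and 88.9, 94.3 and 71.8 CPM in emetine libraries (−0.25, edgeR adjusted p = 0.247, and −0.13, adjusted p = 0.20, without emetine replicate 3). Its groups did not overlap. The sulfatide-cleaving sulfatase *ARSA* had 40.9, 37.5 and 46.5 against 38.5, 39.8 and 32.5 CPM (−0.17, adjusted p = 0.396, and −0.08, adjusted p = 0.5803, without emetine replicate 3), and *ARSB*, which removes sulfate from dermatan sulfate, had 17.3, 18.3 and 17.2 against 14.8, 15.98 and 20.7 CPM. Both overlapped, but for *ARSB* emetine replicates 1 and 2 lay below the untreated libraries and replicate 3 above them. *MAN2B1* had 74.6, 78.4 and 73.8 against 68.6, 66.8 and 71.2 CPM, with every emetine library below the untreated ones.

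Among the 3 lipid hydrolases and the 3 soluble proteins that are not hydrolases, all log2 fold changes were below 0. In 5 of the 6 the emetine libraries lay below the untreated ones, beside 15.2% of all genes. *PPT1* had 201, 215 and 212 CPM in untreated and 174, 183 and 163 CPM in emetine libraries (−0.27, standard error 0.09, edgeR adjusted p = 0.143, and 0.0184 without emetine replicate 3). *LIPA*, which hydrolyzes cholesteryl esters and triglycerides, had 103, 93.9 and 106 against 87.9, 85.3 and 91.5 CPM (−0.19, adjusted p = 0.233, and 0.0405 without emetine replicate 3). In both, the emetine values lay below the untreated ones.

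*NPC2*, which hands cholesterol to the NPC1 protein, had 84.1, 79.6 and 101 CPM in untreated and 72.0, 72.6 and 54.6 CPM in emetine libraries (−0.41, standard error 0.14, edgeR adjusted p = 0.160). *GRN* had 261, 295 and 294 against 223, 245 and 216 CPM (−0.31, adjusted p = 0.134), and *PSAP*, the precursor of the saposins that present lipids to hydrolases, had 395, 414 and 420 against 334, 340 and 361 CPM (−0.25, adjusted p = 0.177). Without emetine replicate 3 their adjusted p-values were 0.0391, 0.0179 and 0.00543. In all 3, no emetine library reached the lowest untreated library, and the share of new reads in these mRNAs was among the lower ones of the list.

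Across members, the log2 fold change in level was more negative where the untreated fraction new was low. Over 36 members measured in the same libraries, the Spearman correlation was 0.650 with all 6 libraries, 0.580 without emetine replicate 3 and 0.450 for the libraries without s4U, which enter the estimate of fraction new only through the background rate. These are descriptions across genes and carry no test.

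Soluble hydrolases and membrane proteins were compared as classes. The median log2 fold change in level was −0.17 over the 24 soluble hydrolases and −0.08 over the 10 membrane proteins (lysosomal membrane proteins and sorting receptors), with 20 of 24 and 9 of 10 below 0. Without emetine replicate 3 the medians were −0.11 and −0.16, so the order of the classes turned. The membrane proteins had longer transcripts, with a median of 3698 bases against 2601 bases, and level in emetine replicate 3 varied with transcript length. Whether transcript length bears on the order of the classes was not tested. Without emetine replicate 3, 5 of 24 hydrolases were lower and 2 higher at an adjusted p-value under 0.05. Of the 10 membrane proteins, 4 were lower and 0 higher, against 3.83% of all genes lower and 9.91% higher. For fraction new, the median change in logit was −0.04 over 23 hydrolases and 0.00 over the 10 membrane proteins. Neither difference between the classes kept its sign when single libraries were left out. The soluble proteins that are not hydrolases had a median of −0.31 with all 6 libraries and −0.28 without emetine replicate 3.

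The libraries without s4U gave a check in cells that carried no label, with 1 library of each kind and therefore no replicate check. All 37 members had at least 100 reads in both libraries together. Their median log2 ratio of emetine over untreated was −0.11, against 0.00 for 12392 genes, and 27 of the 37 were below 0. Past 1.5-fold there was 1 higher member, *MANBA* (11.5 against 17.7 CPM, a log2 ratio of 0.61), and 0 lower, against 3.79% and 1.89% of all genes. *SGSH* had 35.0 and 40.4 CPM (0.20), *IGF2R* 86.4 and 71.3 CPM (−0.28), *PSAP* 383 and 325 CPM (−0.24) and *NPC2* 91.9 and 79.9 CPM (−0.20). *CD63*, at 259 and 254 CPM, and *GLA*, at 342 and 370 CPM, were nearly level.

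**Figure D5:**
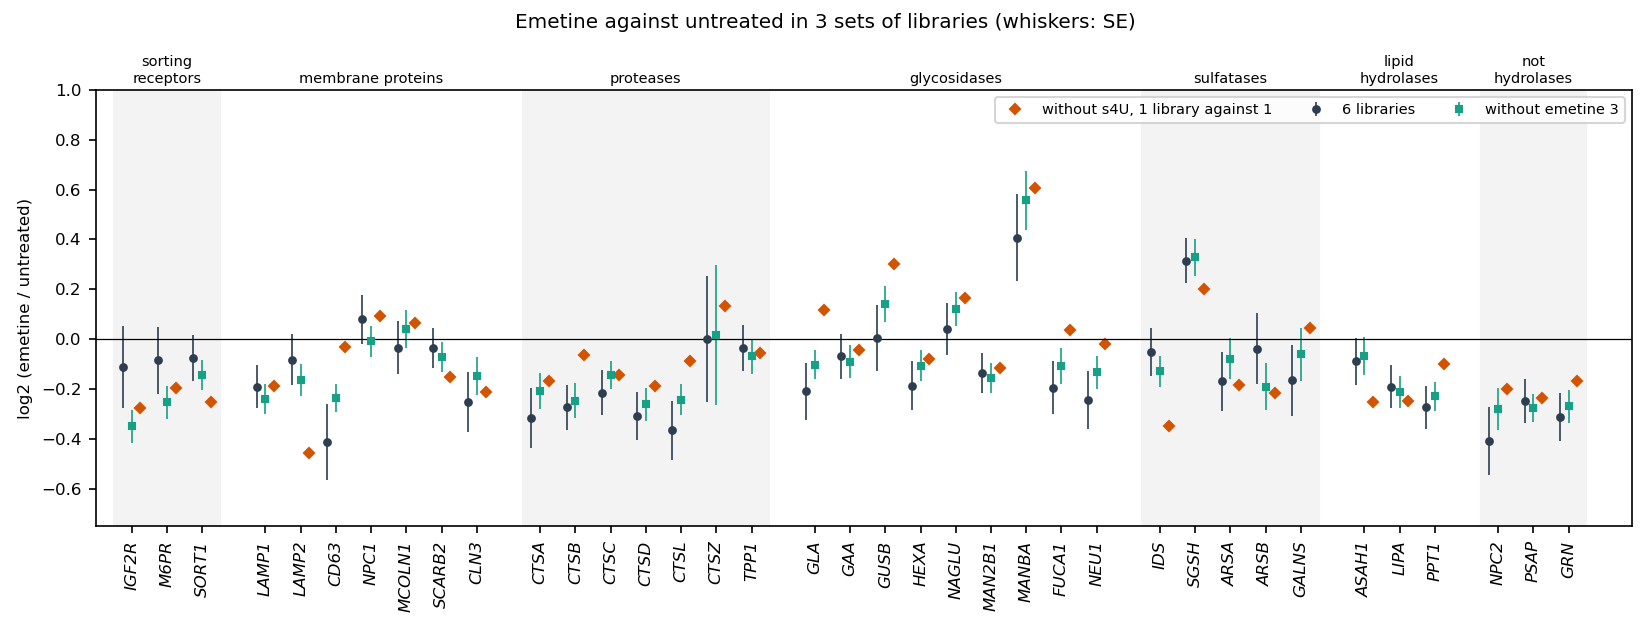
Log2 of emetine over untreated level (vertical axis) for the 37 members by class (horizontal axis), from all 6 labeled libraries (circles), without emetine replicate 3 (squares) and in the 2 libraries without s4U (diamonds), with standard errors as whiskers where a fit gave them. *MANBA* and *SGSH* are above 0 in all 3 sets, *GRN*, *PSAP* and *NPC2* are below 0 in all 3, and *IGF2R* and *CD63* shift between sets.

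Other genes of the same compartment were read against the same shares of all genes, 14.9% higher and 6.95% lower before adjustment. Among 16 subunits and accessory proteins of the V-ATPase, the proton pump that acidifies the lysosome, 0 passed edgeR's test in either direction, 5 were lower at an unadjusted p-value under 0.05, and the median log2 fold change was −0.21. Of 15 genes of the machinery that tags and sorts hydrolases, 0 passed, 1 was higher and 1 lower before adjustment, and the median was −0.07. Of 30 other lysosomal enzymes and membrane proteins, 0 passed, 1 was higher and 9 lower before adjustment, and the median was −0.12. Of 15 genes for the TFEB family of transcription factors and the docking of mTORC1 on the lysosome, 0 passed, 1 was higher and 2 lower before adjustment, and the median was −0.05. DESeq2 called 1 gene of these lists, *LAPTM4A*, lower (−0.30, adjusted p = 0.0177). No gene of the 4 lists passed the limma test of fraction new, in which 2 were higher and 2 lower before adjustment, beside 1.15% and 15.4% of all genes. Without emetine replicate 3, the V-ATPase genes *ATP6V1F*, *ATP6V0E1* and *ATP6AP1* (−0.27, −0.26 and −0.21), *LAMTOR1* (−0.21) and 6 of the other lysosomal genes were lower by edgeR, and *GGA3*, an adaptor of the mannose 6-phosphate receptors, was higher (0.20), against 3.83% of all genes lower and 9.91% higher. These names were chosen after their values were seen. *TFEB* itself had 7.03 CPM in untreated and 6.79 CPM in emetine libraries on average, with an adjusted p-value of 0.860.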

How the data were processed

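Libraries were grouped by treatment, time and replicate number as labeled. For the 1 h experiment, the authors trimmed reads with cutadapt, aligned them with hisat-3n to hg38 and tallied T-to-C conversions with bam2bakR from a stranded kit. The values they deposited are raw read counts per library, gene and number of conversions. For the 2 h experiment, the deposited tables hold the authors' mean of normalized counts, a signal scaled by spike-in reads and pooled over all 2 h libraries, which was used for levels only. Their other columns hold the authors' own fold changes, standard errors and p-values for each dose, and were not used.

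Counts were summed per gene and tested with edgeR 4.0.16 (TMM, quasi-likelihood) under R 4.3.3 on the 13776 genes whose 6 libraries summed to over 100 counts. The fraction new was the weight of a 2-component binomial mixture, fitted per gene and library in Python 3.11.15 (scipy 1.17.1), with background rates from the libraries without s4U. Its logit, bounded at 0.001 and 0.999, was tested with limma 3.58.1 (trend, robust) on the 10763 genes that reached 100 reads in every labeled library, and labeled and unlabeled CPM likewise after adding 0.5 CPM. Log2 values of these are on that scale. Benjamini-Hochberg adjustment ran over all genes tested. Half-lives are −ln(2) × 1 h / ln(1 − fraction new). No molecular identifiers are described, so reads give counting precision only. Each step was tested on simulated data.

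Coordinates and lengths came from GENCODE 44 (all 37 members matched by symbol), promoters from RefSeq. Of the members, 10 share exonic bases with a named coding gene on the opposite strand. These are *M6PR*, *NPC1*, *NPC2*, *GLA*, *CTSA*, *CTSZ*, *LIPA*, *SGSH*, *GALNS* and *CLN3*. Named in full were members called in a test on all 6 libraries, the 2 largest changes in level and the largest change in fraction new per class, and the 3 highest and 3 lowest members in level and in fraction new. Members, classes and lists were chosen with earlier results of these data known. Alternatives covered DESeq2 1.42.0, other scalings, filters, pseudocounts, estimates of the fraction new, a trend on length and GC content (mgcv 1.9.3) and each library left out. Figures were drawn with matplotlib 3.10.9.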

Additional observations from a re-analysis of the deposited data

How the results depend on the processing

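The number of members called for level was 0 in both directions with edgeR on all 6 libraries, with median-of-ratios or spike-in sizes, with other filters and with the replicate block. It was 4 lower with DESeq2, 1 higher and 11 lower with the trend on length and GC content removed (all genes 5.44% and 4.90%), and 2 higher and 17 lower in 8 libraries with s4U as a covariate and emetine replicate 3 left out, a setting chosen after seeing the data (all genes 10.7% and 6.39%). Leaving out 1 library gave 0 to 2 higher and 0 to 12 lower members, with calls only without emetine replicate 3 (all genes 9.91% and 3.83%). The median change of members in level was −0.16 and ranged from −0.19 to −0.14 when 1 library was left out. It was −0.19 with median-of-ratios sizes and with DESeq2, −0.20 with the length and GC trend removed, and −0.14 with all 8 libraries (chosen after seeing the data). With spike-in sizes it was 0.52, because that scaling moved the median of all genes to 0.71. The log2 fold change of *M6PR* ran from −0.25 (without emetine replicate 3) to 0.013 (without emetine replicate 1), and that of *IGF2R* from −0.35 (without emetine replicate 3) to 0.014 (without emetine replicate 2). The median of soluble hydrolases minus that of membrane proteins was −0.08 for level (−0.15 to 0.05 with 1 library left out) and −0.05 for fraction new (−0.14 to 0.10).

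For fraction new, centering the libraries on their medians gave 2 higher members, *GLA* and *FUCA1*, and a median change of members of 0.081 (all genes 1.17% higher and 6.95% lower). Leaving out 1 library gave 0 to 1 member higher, 0 to 1 lower, and a median of −0.15 to 0.052. Among all genes, 0.0929% to 0.381% were then higher and 0.873% to 23.5% lower, the highest without untreated replicate 1. For labeled reads, leaving out 1 library gave 0 to 1 higher, 0 to 3 lower and a median of −0.29 to −0.012. The shares of all genes were 0.121% to 0.595% higher and 0.0186% to 16.1% lower, the highest again without untreated replicate 1. For unlabeled reads, it gave 0 to 2 higher, 0 to 10 lower and a median of −0.18 to −0.15. The shares of all genes were 2.52% to 13.7% higher and 0.0372% to 3.56% lower, the highest without emetine replicate 3. The median untreated fraction new of members was 5.34% to 5.998% with 1 library left out. Without s4U, with 1 library of each kind, 2 members were lower at a fold threshold smaller than 1.5. The share of all genes past that smaller threshold is not given, so this count cannot be compared with a background. The cause of these shifts was not tested.

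Deviations of same-numbered libraries from their group means correlated over genes at −0.20 to 0.06 for level and at 0.00 to 0.06 for fraction new. A shift shared by all genes of a library does not enter these correlations, so they cannot decide whether the numbers pair the libraries. With the replicate block, 0 members were called for level and 1 for fraction new (*GLA*, adjusted p = 0.00750), and the median change in level was −0.16. At this depth, *CTSZ* gave no estimate of fraction new, and *MANBA* rested on 191 to 596 reads per library.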
